A study of Homo sapiens with 12 samples.

Results

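Many genes can end their messenger RNA at more than one place, and 1544 of the 18651 protein-coding genes measured here (8.28%) had at least 2 annotated 3′ end intervals that do not overlap. The intervals are the 3′ untranslated regions (UTRs) of curated RefSeq coding transcripts over which reads were counted. For each gene and strand, overlapping intervals were joined, and a gene was kept where at least 2 joined intervals remained apart. Of the 1544 genes, 1357 had 2 joined intervals and 187 had 3 or more, with at most 9. The 5′-most and the 3′-most joined interval of each gene were compared, each represented by its annotated interval with most reads, and the 231 intervals between them were left out. The measure is the share of reads at the 5′-most end, which is the reads there over the reads at both ends of the gene.

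The cells were 22Rv1, a human prostate cancer line, and in every group they were gene-edited to express C1111S-SF3B1, in which a serine replaces a cysteine of this splicing factor. The groups were WX-02-23 (20 µM, 3 h), WX-02-43 (20 µM, 3 h), PladB (10 nM, 3 h) and DMSO (0.1% v/v), and each was sequenced in 3 libraries. The WX compounds are stereoprobes known by code names only. PladB stands for pladienolide B, which inhibits the SF3b complex. All cells also received 4-thiouridine (100 µM, 1 h), a uridine analogue that reads as C in place of T after alkylation, so that a read with this change (a T>C read) is taken as a read of newly made RNA. The libraries were 3′ end libraries (QuantSeq), which read RNA next to its poly(A) tail. The labels do not say whether the edited line is 1 clone or whether replicates were separate cultures, so p-values reflect only how much these libraries varied, which may be technical.

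A 3′ end forms when the cleavage and polyadenylation machinery recognises a poly(A) signal, usually AAUAAA, cuts the RNA shortly downstream and adds the tail. A signal inside an intron is used only if cleavage wins over removal of that intron. U1 and U2 snRNPs, the second of which holds SF3b with SF3B1, are known to restrain such early ends while the intron is being spliced. An early end can lie in a last exon of its own, reached by splicing, or in an exon that simply runs on into the following intron. The first kind needs its upstream intron to be removed, and the second forms where an intron is kept.

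The sequences before the ends of 3 genes whose ratio changed after PladB are shown because each has a canonical signal at both ends. They are the last 30 bases of matching GENCODE 29 transcripts, 5′ to 3′, written as DNA, with the signal AATAAA in capitals. The intervals are in hg19. ELK4 and LATS1 were chosen after their values were seen. The early interval of CREB3L2 is only 16 bases long, so its 30 bases reach beyond the interval.
ELK4 5′-most end (chr1:205588396-205588955, minus strand): ctattgaAATAAAaatttaaaaaattttaa
ELK4 3′-most end (chr1:205577071-205585673, minus strand): ttttttaAATAAAtatttttaacaaaatga
LATS1 5′-most end (chr6:150004055-150004151, minus strand): aaaagtgAATAAAtattaaagtacttttga
LATS1 3′-most end (chr6:149979289-149982864, minus strand): gggatAATAAAaaaaattcaaatctttcaa
CREB3L2 5′-most end (chr7:137597557-137597572, minus strand): ttgcttccaAATAAAaattttgcaagctaa
CREB3L2 3′-most end (chr7:137559725-137565221, minus strand): tgcaAATAAAtattttttcttaaatagtaa

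The early ends carried the signal about as often as the late ones. AATAAA, searched on the transcript strand, lay within the last 30 bases of 54.1% of the 656 5′-most ends and 54.4% of the 586 3′-most ends whose sequence could be matched. The share was 57.2% over all 7729 matched coding ends. ATTAAA without AATAAA was found at 14% of the 5′-most and 11.6% of the 3′-most ends. A match is only a description of these letters, and no match says only that they are not in this window.

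Library totals ran from 24670716 to 42190854 reads, and reads on coding intervals from 12331501 to 21414162. The 1544 genes held 6.27% to 6.88% of the coding reads of a library. Their 5′-most ends received 308474 to 562654 reads per library and their 3′-most ends 499280 to 844403. T>C reads at the 5′-most ends numbered 22824 to 32652 in PladB libraries, against 32163 to 40137 in DMSO libraries, which is 5.38% to 5.80% of the reads there after PladB and 8.78% to 9.98% in DMSO. The luminal prostate genes FOXA1, HOXB13, KRT8 and KRT18 stood between 94.7 and 382 CPM (counts scaled to a common library size) in every library. KLK2 stood at 19.1 to 33.8 CPM, and the other luminal markers given here were low, with KLK3 at 1.87 to 8.62 CPM and TMPRSS2 at 4.18 to 10.8 CPM. Of 14 markers of other cell types, TP63, KRT5, COL1A2, CD3E, LYZ and CDH5 had no read in any library, and the highest was SYP, a neuroendocrine marker, at 8.87 to 22.5 CPM. In RNA of a whole culture, fewer cells of a type and less RNA per cell cannot be told apart.

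PladB moved reads towards the 5′-most end, and neither stereoprobe moved a gene past the test. Over the 715 genes with reads at an end in every library, the median share at the 5′-most end was 17.0% ± 0.459 after WX-02-23, 17.3% ± 0.608 after WX-02-43, 29.8% ± 0.644 after PladB and 16.0% ± 0.409 in DMSO (SD, n = 3 each). Pooling the reads of all 1544 genes, it was 38.1% ± 0.517, 37.3% ± 0.709, 43.7% ± 0.771 and 36.8% ± 1.00 in the same order of groups. All 3 PladB libraries lay above all 3 DMSO libraries on both measures, as the plot of shares by library shows. The median was also above that of every DMSO library in all 3 WX-02-23 libraries (16.5% to 17.3%) and all 3 WX-02-43 libraries (16.6% to 17.7%), against 15.6% to 16.4% in DMSO. In all reads the gaps between the stereoprobes and DMSO are small beside that of PladB. In T>C reads the median share over 236 genes was 37.8% ± 1.13 after WX-02-23, 35.0% ± 3.04 after WX-02-43, 58.0% ± 4.57 after PladB and 30.2% ± 3.50 in DMSO (SD, n = 3 each). The PladB libraries were again the highest. All 3 WX-02-23 medians (36.9% to 39.0%) also lay above the DMSO medians (26.9% to 33.9%), while those of WX-02-43 overlapped with DMSO. Pooled over all genes, the T>C share was 38.4% to 41.7% after WX-02-23, 38.9% to 40.2% after WX-02-43, 47.2% to 48.3% after PladB and 35.6% to 37.8% in DMSO, with every compound above DMSO.

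**Figure D1:**
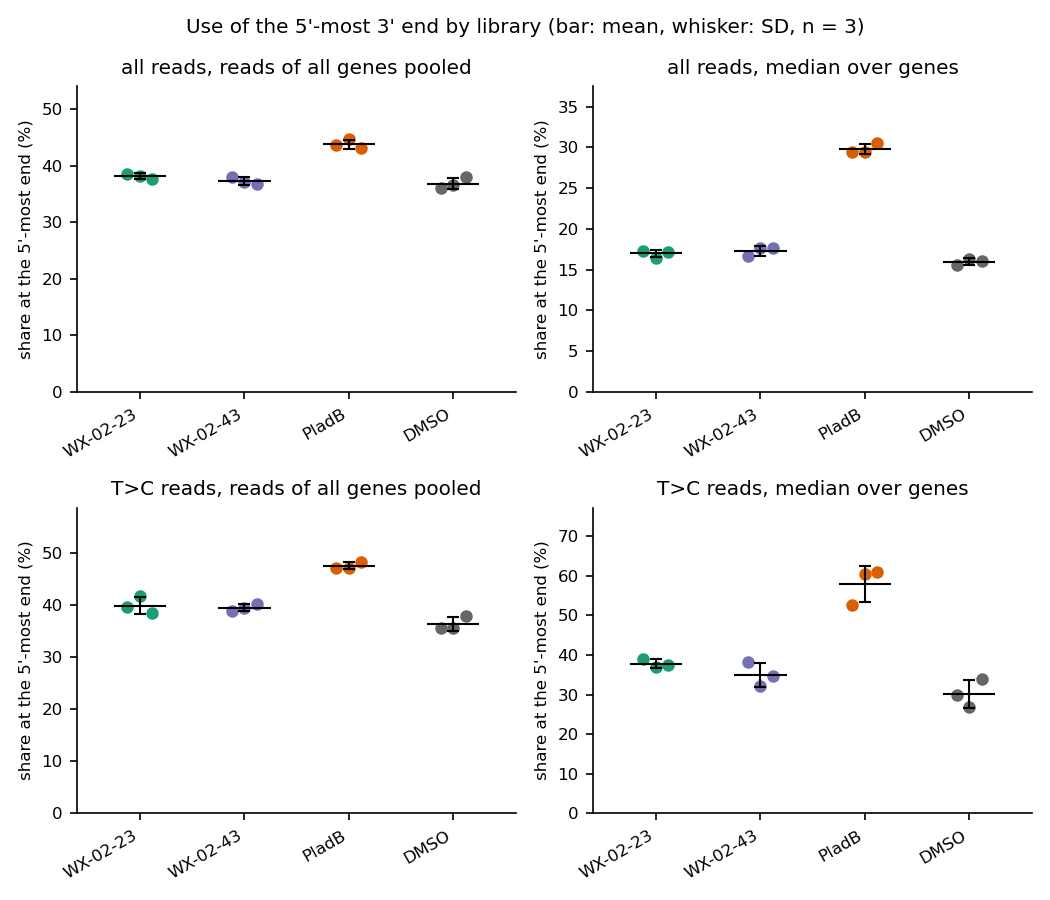
Share at the 5′-most 3′ end (percent, from 0) in each library, with reads of all genes pooled on the left and the median over genes on the right, for all reads above and T>C reads below. Points are libraries, bars the mean and whiskers the SD (n = 3), and the 3 PladB libraries lie above every other library in each panel.

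The change of each gene's 5′/3′ ratio was tested with edgeR's quasi-likelihood test over 764 genes with enough reads, with each library as its own reference. After PladB, 44 of the 764 were called at a Benjamini-Hochberg adjusted p under 0.05 (5.76%), 43 of them towards the 5′-most end (5.63%) and 1, ICOSLG, towards the 3′-most end (0.131%). The count depends on single libraries, since leaving out 1 library at a time gave 20 to 36 calls. It was 24 without DMSO replicate 1, 26 without DMSO replicate 3, 20 without PladB replicate 1 and 25 without PladB replicate 3. With the other tests, DESeq2 called 170 (156 towards the 5′-most end) and limma 109 (103), and these included all 44 and 43 of the 44.

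The shift was broader than the called genes. Of 725 genes with a share in every PladB and DMSO library, the mean share at the 5′-most end was higher after PladB in 510 and lower in 212, with a median difference of 3.5 percentage points (quartiles -0.428 and 14.1). The PladB libraries all lay above the DMSO libraries in 208 genes (27.2% of the 764) and all below in 26 (3.4%). Most genes therefore overlapped between the groups, and those that did not lay mainly on 1 side.

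**Figure D2:**
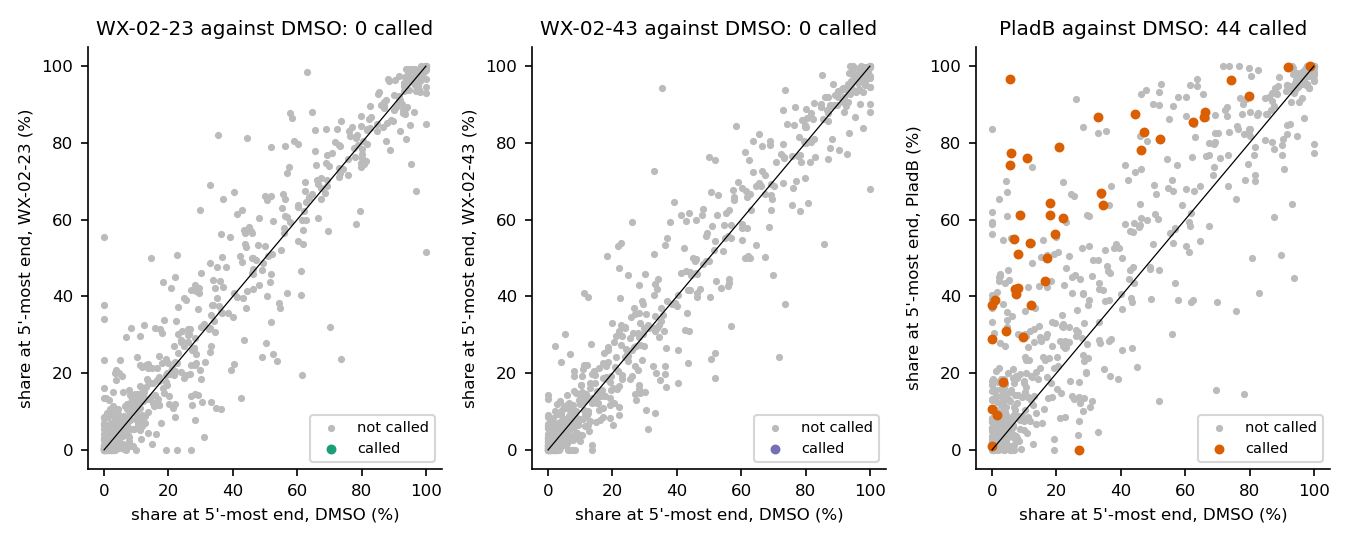
Mean share of reads at the 5′-most end (percent) after each compound against DMSO, with 1 point a gene and the line of equal shares. The genes called by edgeR, 0 after WX-02-23, 0 after WX-02-43 and 44 after PladB, are coloured, and after PladB they lie above the line except ICOSLG at 0%. Of the 44, TESMIN has no mean share after PladB and is not drawn.

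Among the 42 genes called towards the 5′-most end that had reads in every library, the median share was 18.6% after WX-02-23, 17.2% after WX-02-43, 61.2% after PladB and 14.3% in DMSO. The 5′-most end held over 50% of the reads in 28 of them after PladB, against 8 in DMSO. The differences ran from 1.01 percentage points in ALCAM to 90.8 in WDR33, with a median of 33.0. These values describe genes chosen by the same comparison and add no support to it. The remaining called gene, TESMIN, named for this reason, had no read at either end in 1 PladB library.

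Of the genes of the cleavage and polyadenylation machinery, WDR33 and RBBP6 shifted most, CSTF3 less, and PAPOLA was not called. Of 31 such genes, 4 had separate ends, all 4 passed the filter and 3 were called towards the 5′-most end, where 5.63% of all 764 tested genes were called, with a median difference of 50.3 percentage points against 3.5 over all genes. The list was chosen with earlier results of these data known, so this is a description of 4 genes and not a test of the group. WDR33 is the subunit of the cleavage and polyadenylation specificity factor that binds the AAUAAA signal. Its 5′-most end (chr2:128520060-128522046, minus strand) runs on from exon 7 of 22, and its tip lies 58252 bases before that of the 3′-most end (chr2:128461808-128463896). The 5′-most end of WDR33 had 68, 132 and 40 reads after WX-02-23, 29, 29 and 40 after WX-02-43, 862, 390 and 590 after PladB and 13, 7 and 26 in DMSO. Its 3′-most end had 363, 273 and 374 reads after WX-02-23, 162, 296 and 394 after WX-02-43, 53, 0 and 28 after PladB and 351, 265 and 210 in DMSO. The 2 ends thus changed places after PladB, with no overlap between PladB and DMSO libraries at either end. The share at the 5′-most end of WDR33 was 96.6% ± 3.05 after PladB and 5.72% ± 4.61 in DMSO (SD, n = 3 each), a log2 change of the ratio of 9.67 (SE 1.56, edgeR adjusted p = 0.00677). On its own scale over all coding intervals, the 5′-most end rose by 5.43 log2 units (edgeR adjusted p = 9.83e-10) and the 3′-most end fell by 3.28 (edgeR adjusted p = 1.01e-05).

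RBBP6 encodes a protein needed for 3′ end cleavage, and its early end (chr16:24560357-24560722, plus strand) runs on from exon 3 of 17. Its 5′-most end had 225, 174 and 168 reads after PladB, against 5, 12 and 62 in DMSO. Its 3′-most end had 53, 85 and 56 reads after PladB, against 355, 346 and 452 in DMSO. The groups did not overlap at either end. The share at the 5′-most end of RBBP6 was 74.4% ± 6.90 after PladB and 5.60% ± 5.68 in DMSO (SD, n = 3 each), a log2 change of 6.13 (SE 0.95, edgeR adjusted p = 0.00556). After WX-02-23 it was 7.94% ± 3.31 and after WX-02-43 5.52% ± 2.95 (SD, n = 3 each), within the spread of the DMSO libraries.

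CSTF3 encodes the scaffold subunit of cleavage stimulation factor, and its early end (chr11:33162977-33163424, minus strand) runs on from exon 3 of 21. It held nearly as many reads as the late end in DMSO, unlike those of WDR33 and RBBP6. Reads at the 5′-most end numbered 1071, 741 and 953 after PladB, against 682, 673 and 467 in DMSO, and at the 3′-most end (chr11:33106130-33106632) 286, 313 and 166, against 893, 591 and 632. The share at the 5′-most end of CSTF3 was 78.1% ± 7.46 after PladB and 46.3% ± 5.99 in DMSO (SD, n = 3 each), a log2 change of 2.10 (SE 0.43, edgeR adjusted p = 0.0183). This call rests on the full set of libraries, since the edgeR adjusted p was 0.0669 without DMSO replicate 1, 0.0695 without DMSO replicate 3, 0.0700 without PladB replicate 1 and 0.0690 without PladB replicate 3. The late end of CSTF3 was lower in every PladB library. In T>C reads CSTF3 had 177, 108 and 107 reads at the 5′-most end and none at the 3′-most end after PladB, against 37, 48 and 72 at the 5′-most and 95, 23 and 15 at the 3′-most end in DMSO (edgeR adjusted p = 0.0754). PAPOLA, the main nuclear poly(A) polymerase, was the fourth gene of the group and was not called. Its share at the 5′-most end was 23.5% ± 2.66 after PladB and 16.4% ± 0.971 in DMSO (SD, n = 3 each), with no overlap of libraries and a log2 change of 0.64 (SE 0.33, edgeR adjusted p = 0.320).

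**Figure D3:**
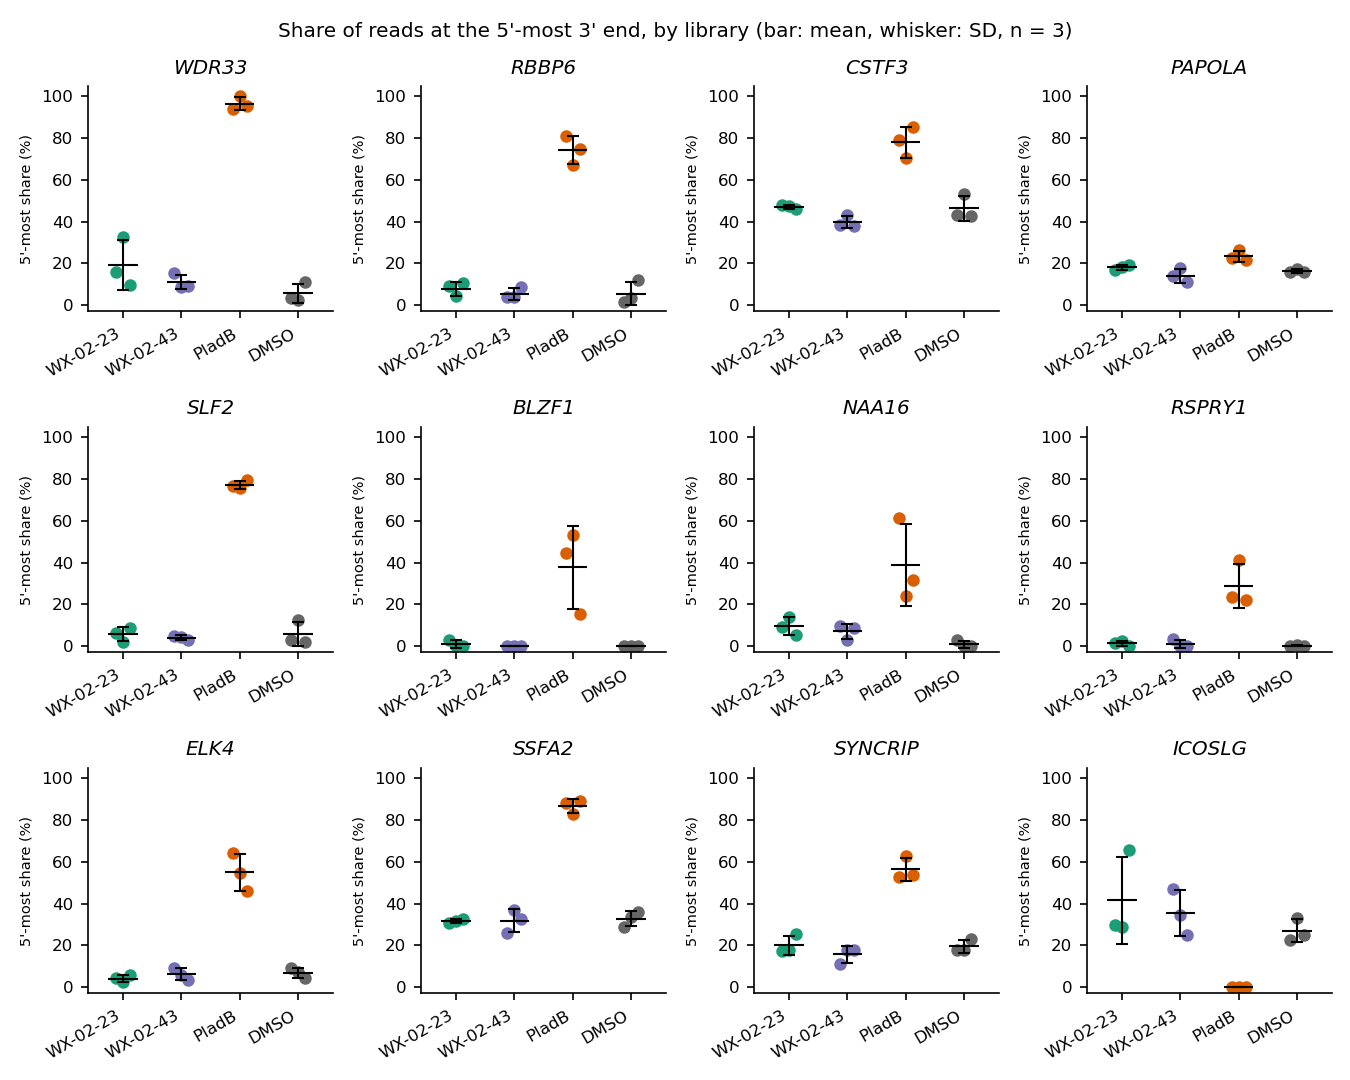
Share of reads at the 5′-most end (percent) in each library of 12 genes by group, with the mean as a bar and the SD as a whisker (n = 3). WDR33, RBBP6, SLF2, ELK4, SSFA2 and SYNCRIP have all 3 PladB libraries far above the other groups, PAPOLA lies closer to them, and ICOSLG is at 0% after PladB alone.

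Several genes used an early end after PladB that was barely read, or not read, in DMSO. The filter averaged the reads of all 12 libraries, PladB included. Such ends could therefore pass it through their PladB reads, and that they were tested adds no support to the difference. BLZF1, which encodes a Golgi matrix protein, had 181, 125 and 49 reads at its 5′-most end (chr1:169346275-169346621, plus strand) after PladB and none in any DMSO library, at least 34.7-fold higher against a floor of 3 counts per library. The late end of BLZF1 overlaps CCDC181 on the other strand. The share at the 5′-most end was 37.7% ± 19.8 after PladB (SD, n = 3; edgeR adjusted p = 0.0364). NAA16, an auxiliary subunit of an N-terminal acetyltransferase, had 232, 63 and 102 reads at its 5′-most end after PladB, against 9, 0 and 0 in DMSO, and shares of 39.0% ± 19.7 and 0.946% ± 1.64 (SD, n = 3 each; edgeR adjusted p = 0.0272). All 3 PladB libraries exceeded the DMSO libraries in both genes, with a wide spread among them. RSPRY1 had shares at its 5′-most end of 29% ± 10.6 after PladB and 0.129% ± 0.223 in DMSO (edgeR adjusted p = 0.0402). CREB3L2, a transcription factor anchored in the endoplasmic reticulum membrane, had 10.7% ± 2.85 and 0.0844% ± 0.146 (edgeR adjusted p = 0.0395). ALCAM, a cell adhesion molecule, had only 83, 23 and 85 reads at its 5′-most end after PladB among 8007, 5092 and 5353 at its 3′-most end. No read was counted there in DMSO, so the end of ALCAM was at least 19.0-fold higher, but its share reached only 1.01% ± 0.557 (SD, n = 3; edgeR adjusted p = 0.00503). The calls of BLZF1, RSPRY1 and CREB3L2 were lost whichever PladB or DMSO library was left out (edgeR adjusted p from 0.0629 in CREB3L2 to 0.116), and the call of NAA16 was kept only without DMSO replicate 1 (0.0258) or PladB replicate 2 (0.0436), against 0.0665 without DMSO replicate 2, 0.0695 without DMSO replicate 3, 0.0879 without PladB replicate 1 and 0.0703 without PladB replicate 3. ALCAM kept its call in all 6 of these fits.

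In other genes the ratio changed mainly through lower reads at the late end. SLF2, which helps load the SMC5/6 complex at DNA damage, had 130, 75 and 124 reads at its 5′-most end (chr10:102673060-102673643, plus strand) after PladB, against 18, 72 and 9 in DMSO. At its 3′-most end it had 39, 24 and 32 reads after PladB, against 626, 509 and 403 in DMSO. The early end of SLF2 was close in 1 library of each group, and the late end was far lower in every PladB library. Its share at the 5′-most end was 77.4% ± 1.91 after PladB and 5.79% ± 5.73 in DMSO (SD, n = 3 each; log2 change 6.25, SE 0.90, edgeR adjusted p = 0.00503). On its own scale the 3′-most end of SLF2 fell by 3.88 log2 units (edgeR adjusted p = 4.56e-12), while the 5′-most end was not called (log2 change 1.81, edgeR adjusted p = 0.195). MRPL43, a mitochondrial ribosomal protein gene, kept nearly all reads at its 5′-most end in every group. It had no read at its 3′-most end after PladB, against 18, 25 and 42 in DMSO, at least 10.3-fold lower (edgeR adjusted p of the ratio 0.0395). The call of MRPL43 was lost without any 1 library (edgeR adjusted p 0.0770 to 0.105) and when its middle interval was counted with the late end.

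SSFA2, ELK4 and SYNCRIP had many reads at both ends and kept their calls with any 1 library left out. SSFA2 and ELK4 were chosen after their values were seen, and SYNCRIP as the single gene with separate ends among 62 SR protein, hnRNP and splicing regulator genes. SSFA2, which encodes a partner of inositol trisphosphate receptors, had 3919, 3241 and 3252 reads at its 5′-most end (chr2:182757392-182759425, plus strand) after PladB, against 712, 557 and 896 in DMSO. At its 3′-most end it had 525, 666 and 390 after PladB, against 1761, 1098 and 1589 in DMSO. The share of SSFA2 at the 5′-most end was 86.8% ± 3.39 after PladB and 32.8% ± 3.70 in DMSO (SD, n = 3 each; log2 change 3.79, SE 0.38, edgeR adjusted p = 0.00109). For ELK4, an ETS factor that acts with SRF, the 5′-most end had 534, 319 and 280 reads after PladB, against 123, 73 and 38 in DMSO. ELK4 had 299, 263 and 329 reads at its 3′-most end after PladB, against 1236, 911 and 863 in DMSO. Its share at the 5′-most end was 55.0% ± 9.07 after PladB and 6.90% ± 2.46 in DMSO (SD, n = 3 each; log2 change 4.11, SE 0.60, edgeR adjusted p = 0.00503). SYNCRIP, also known as hnRNP Q, had a share of 56.4% ± 5.71 after PladB and 19.5% ± 2.99 in DMSO (SD, n = 3 each; log2 change 2.43, SE 0.41, edgeR adjusted p = 0.00862). In all 3 genes the PladB libraries lay above the DMSO libraries without overlap. LATS1, a kinase of the Hippo pathway, had 42.2% ± 0.832 after PladB and 8.14% ± 2.32 in DMSO (SD, n = 3 each; edgeR adjusted p = 0.0395), and its call was lost with any 1 library left out (0.0874 to 0.120).

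ICOSLG was the single called gene that moved the other way. It encodes the ligand of the T cell costimulator ICOS, and its 2 ends lie 3836 bases apart on chromosome 21. The 5′-most end (chr21:45646710-45648916, minus strand) had 130, 31 and 156 reads after WX-02-23, 128, 73 and 60 after WX-02-43, none after PladB and 55, 67 and 28 in DMSO. The 3′-most end (chr21:45642874-45642929) had 66, 52 and 56 reads after PladB, against 188, 134 and 83 in DMSO. The 5′-most end was at least 18.3-fold lower after PladB, and the edgeR adjusted p of the ratio was 0.0132. ICOSLG had no T>C read at either end after PladB.

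Genes with many reads at both ends were described whether or not they passed the test. The rule for this group was the 12 genes with most reads whose less used end held at least 10% of them, whatever their test, and 1 of the 12 was called in all reads. PAPOLA, given above, and CIRBP, given with the T>C reads, are among them. That gene was ZC3HAV1, the antiviral zinc finger protein ZAP, whose short form comes from the early end (chr7:138745084-138745777, minus strand). Its 5′-most end had 1309, 966 and 991 reads after PladB, against 336, 301 and 235 in DMSO, and its 3′-most end (chr7:138728266-138732339) 3144, 2454 and 2213, against 3090, 2427 and 2735. The reads of the early end of ZC3HAV1 lay far apart between the groups, and on its own scale that end rose by 2.04 log2 units (edgeR adjusted p = 6.37e-08). Its share was 29.5% ± 1.35 after PladB and 9.58% ± 1.57 in DMSO (SD, n = 3 each; log2 change 1.99, SE 0.42, edgeR adjusted p = 0.0194). The edgeR adjusted p for ZC3HAV1 was 0.0638 without DMSO replicate 1, 0.0762 without DMSO replicate 3, 0.0740 without PladB replicate 1 and 0.0703 without PladB replicate 3.

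The remaining genes of that group were not called. TMPO, which makes the nuclear lamina proteins LAP2, had 41.0% ± 1.35 at its 5′-most end after PladB and 24.7% ± 1.69 in DMSO (SD, n = 3 each; edgeR adjusted p = 0.0640). LMNA, the lamin A and C gene, had 59.3% ± 3.96 and 44.0% ± 5.20 (edgeR adjusted p = 0.212). The groups did not overlap in TMPO or LMNA. ENSA, an inhibitor of protein phosphatase 2A in mitosis, had 24.3% ± 2.96 after PladB and 10.4% ± 5.46 in DMSO (edgeR adjusted p = 0.0735). CUX1, a homeobox factor gene, had 85.0% ± 2.07 after PladB and 92.6% ± 1.39 in DMSO, the opposite direction (edgeR adjusted p = 0.0828). NPM1, nucleophosmin, had 29.6% ± 1.21 and 26.0% ± 1.96 (edgeR adjusted p = 0.648), with up to 33.2% of its reads mapping to several places. The shares of H2AFV (91.0% and 87.1%), CNPY2 (32.2% and 21.8%), SLC11A2 (82.8% and 80.0%) and TOR1AIP2 (28.9% and 36.9%) after PladB and in DMSO were not told apart by the test either.

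The other gene groups held few called genes, and with 5.63% of all 764 tested genes called towards the 5′-most end, counts of 0 or 1 in groups of this size are near the background. Among ubiquitin, chaperone and protein turnover genes, 2 of 8 tested were called towards the 5′-most end (median difference 10.5 percentage points). These were WWP2, a HECT ubiquitin ligase, with 61.2% ± 8.75 after PladB and 8.57% ± 5.30 in DMSO (edgeR adjusted p = 0.0134, and 0.0555 without PladB replicate 3), and the cochaperone gene DNAJB6, with 85.6% ± 3.28 and 62.6% ± 6.90 (edgeR adjusted p = 0.0389, lost without any 1 library at 0.0669 to 0.107). Up to 49.6% of DNAJB6 reads mapped to several places. Among zinc finger and chromatin genes 1 of 14 was called (median 6.82), ATF7, a CREB family factor, with 87.6% ± 2.91 after PladB and 44.5% ± 13.8 in DMSO (edgeR adjusted p = 0.00905). Among cytoskeleton and lamina genes 1 of 8 was called (median 3.98), SPTBN1, a spectrin gene, with 9.19% ± 2.51 and 1.57% ± 1.19 (edgeR adjusted p = 0.0395, kept at 0.0352 without DMSO replicate 3 and lost without any other 1 library at 0.0830 to 0.109). None was called of 7 receptor and kinase genes (median 1.52), 11 DNA damage response genes (median -1.70), 9 membrane transport genes (median 4.08) or 2 luminal prostate genes, FKBP5 and ACPP (median 4.93). No NRF2 or stress response gene of the list had separate ends.

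SF3B1 itself has a second annotated end, which runs on from exon 4 of 25 (chr2:198283520-198285101, minus strand). Reads there numbered 0, 0 and 30 after WX-02-23, 0, 0 and 13 after WX-02-43, 63, 0 and 38 after PladB and 0 in each DMSO library. The late end had 766 to 1371 reads in the same libraries. Without its PladB reads the early end would not have reached the mean of 5 reads that the filter needed. The early end of SF3B1 was seen in some libraries of each compound and in no DMSO library, and the ratio was not called (PladB edgeR adjusted p = 0.299). TPM1 had 30.3% ± 6.60 after PladB and 16.9% ± 5.30 in DMSO (edgeR adjusted p = 0.297), and CDC42 stayed under 1% in both (0.575% ± 0.158 and 0.236% ± 0.260, edgeR adjusted p = 0.487).

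Each end was also tested on its own against all 14025 coding intervals that passed the filter, of which 12.9% rose and 15.8% fell after PladB (28.7% called in either direction). Of 885 5′-most ends, 104 rose (11.8%) and 51 fell (5.76%), and their median log2 change was 0.30. Of 1076 3′-most ends, 62 rose (5.76%) and 217 fell (20.2%), with a median of -0.32. The median was -0.08 over the 11950 intervals of genes with a single joined interval, of which 1630 rose and 1946 fell. The late ends thus fell more often than coding intervals in general, and the early ends fell less often, as a description without a test. Neither the early ends (11.8%) nor the late ends (5.76%) rose more often than coding intervals in general (12.9%). Among the 43 genes called towards the 5′-most end, 21 had both a higher early end and a lower late end, 12 only a higher early end and 10 only a lower late end.

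**Figure D4:**
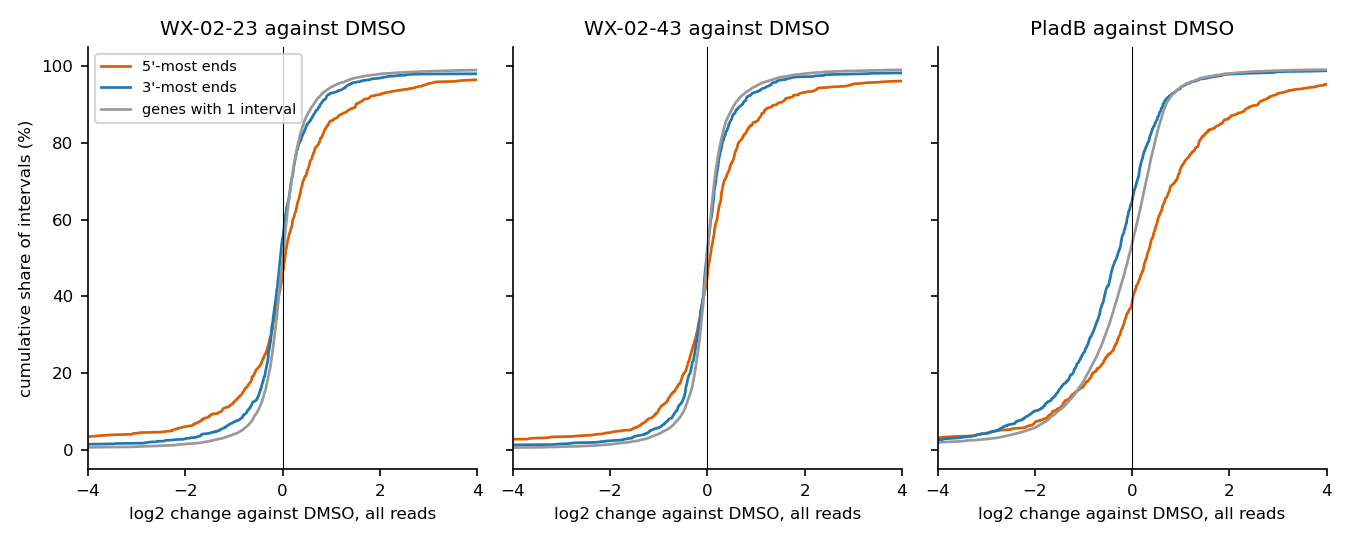
Cumulative share of intervals (percent) by log2 change in all reads after WX-02-23, WX-02-43 and PladB against DMSO, for 5′-most ends, 3′-most ends and genes with 1 joined interval. After PladB the 5′-most ends lie to the right (median 0.30) and the 3′-most ends to the left (median -0.32) of single intervals (median -0.08), while after the stereoprobes the medians lie close to 0.

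Early ends that run on into an intron and early ends in a last exon of their own differed in their values, given here as counts and medians with no test of the difference. By GENCODE 29 transcript models, which could be assigned to 1211 genes, the 5′-most end was a separate last exon in 601 genes and ran on from a shared exon into the intron in 578. Of 309 tested genes with a run-on end, 30 were called towards the 5′-most end after PladB (9.71%). Of 277 with a separate last exon, 4 were called (1.44%), namely CAMTA1, LIMK2, TROAP and RCOR3, which are named here for their small number after their values were seen. With 1 library left out, CAMTA1 lost its call without PladB replicate 1 (edgeR adjusted p = 0.0700), LIMK2 kept it only without DMSO replicate 1 (0.0437) or PladB replicate 3 (0.0288), TROAP only without PladB replicate 3 (0.0466) and RCOR3 only without PladB replicate 1 (0.0273). The highest values with a library left out were 0.107 for LIMK2, 0.113 for TROAP and 0.116 for RCOR3. The median share of run-on ends over 287 genes was 12.7% ± 0.410 after WX-02-23, 11% ± 1.08 after WX-02-43, 29.2% ± 0.457 after PladB and 11% ± 0.853 in DMSO (SD, n = 3 each). For separate last exons over 263 genes it was 28.8% ± 2.29, 28.5% ± 1.84, 31.5% ± 2.49 and 28.5% ± 2.42 in the same order. Run-on ends of the PladB libraries thus lay far above the other groups, while separate last exons overlapped with DMSO. For run-on ends the WX-02-23 libraries, at 12.4% to 13.2%, also lay above the DMSO libraries, at 10.0% to 11.6%, and the WX-02-43 libraries overlapped with them. The median difference between PladB and DMSO was 7.22 percentage points for run-on ends, with 223 of 291 genes higher, and 1.10 for separate last exons, with 162 of 266 higher.

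Run-on ends were also the more shifted kind in T>C reads. The median share of run-on ends over 99 genes was 56.2% ± 9.39 after PladB and 19.6% ± 4.63 in DMSO, and that of separate last exons over 87 genes was 56.6% ± 4.19 and 47.5% ± 4.68 (SD, n = 3 each). A read inside a run-on interval can come from RNA that ends there or from unspliced RNA primed at an internal A-rich stretch, and the tables cannot tell these apart. The early ends of CAMTA1 and RCOR3 were not called on their own (edgeR adjusted p = 0.0617 and 0.781). CAMTA1 had 2, 5 and 0 reads at its 3′-most end after PladB, against 53, 98 and 46 in DMSO, and its ratio change fell to a log2 of 0.04 (edgeR adjusted p = 0.982) when its middle interval was counted with the late end. Over the genes called towards the 5′-most end the median distance between tips was 21257 bases, against 15905 over all 1544.

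**Figure D5:**
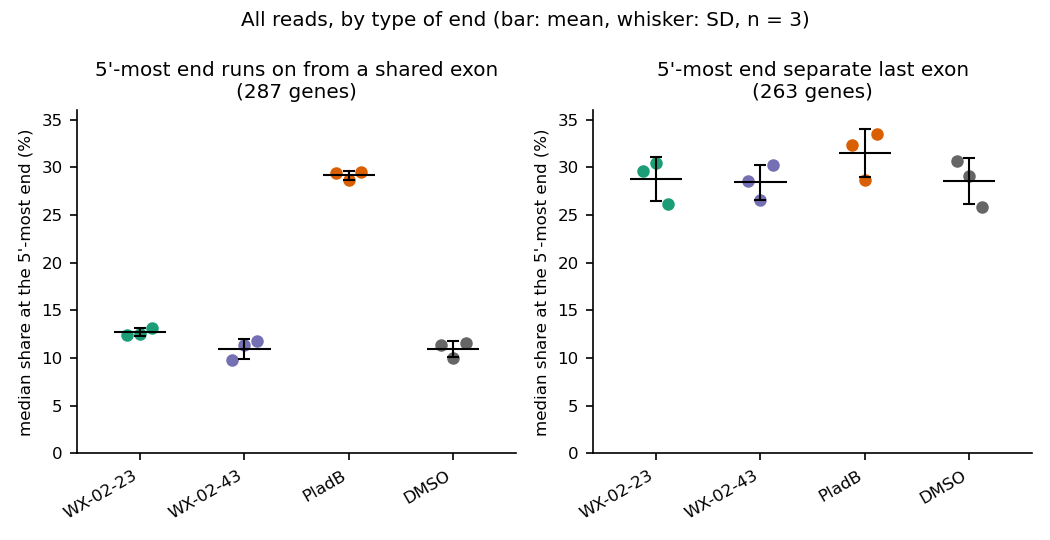
Median share of reads at the 5′-most end (percent, from 0) in each library, for genes whose 5′-most end runs on from a shared exon (287 genes) and genes where it is a separate last exon (263 genes), with the mean and SD (n = 3). PladB libraries stand at about 29.2% against 11% in DMSO in the first set, and overlap with DMSO in the second.

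In newly made RNA, 342 genes had enough T>C reads to be tested. PladB changed the ratio of 2 genes at an edgeR adjusted p under 0.05 (0.585%), both towards the 5′-most end. The unadjusted p was under 0.05 for 38 genes, 32 of them towards the 5′-most end. DESeq2 called 33 of the 229 genes to which it gave an adjusted p, and limma 30 of 342. WDR33 had 125, 18 and 94 T>C reads at its 5′-most end and none at its 3′-most end after PladB, against 3, 7 and 8 at the 5′-most and 122, 54 and 73 at the 3′-most end in DMSO. The late end of WDR33 was at least 29.7-fold lower (edgeR adjusted p of the ratio 0.0465). CIRBP, the cold-inducible RNA-binding protein, had 219, 155 and 126 T>C reads at its 5′-most end (chr19:1272443-1273171, plus strand) after PladB, against 363, 141 and 309 in DMSO. It had none at its 3′-most end (chr19:1274311-1274809) after PladB, against 90, 42 and 57 in DMSO, at least 22.6-fold lower (edgeR adjusted p of the ratio 0.0397). In all reads the CIRBP share at the 5′-most end was 94.3% ± 1.33 after PladB and 87.9% ± 3.17 in DMSO (SD, n = 3 each; edgeR adjusted p = 0.144). Both T>C calls were lost with any 1 library left out (edgeR adjusted p 0.0918 to 0.294 for CIRBP and 0.0918 to 0.309 for WDR33).

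CIRBP is shown because its late end, with the canonical signal, was not read in newly made RNA after PladB, while its early end has the variant ATTAAA in capitals. Both are the last 30 bases of matching GENCODE 29 transcripts, and the 2 tips lie 1638 bases apart.
CIRBP 5′-most end (plus strand): gaagccgATTAAAagaccgtgtgaaatgaa
CIRBP 3′-most end (plus strand): cgAATAAAgggccacgtgtgcacccagaaa

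The T>C shares moved in the same direction as those in all reads for most called genes. Of the 43 genes called towards the 5′-most end in all reads, 37 could be tested in T>C reads, 34 of these had a higher T>C ratio and 22 had PladB libraries that all lay above the DMSO libraries, against 49 of all 342 tested (14.3%). They all lay below in 9 of the 342 (2.63%). T>C reads come from the same libraries as all reads, so this is not independent of the choice. On their own, 24 of 516 5′-most ends rose and 19 fell in T>C reads, and 9 of 775 3′-most ends rose and 58 fell. Over all 11071 intervals 4.5% rose and 5.82% fell (10.3% in either direction), with a median log2 change of -0.37, against -0.10 for 5′-most and -0.85 for 3′-most ends.

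WX-02-23 changed no ratio past the test (0.0% of 764, edgeR), with 29 genes at an unadjusted p under 0.05, 5 calls by DESeq2 and none by limma. The mean share at the 5′-most end was higher than in DMSO in 417 genes and lower in 314 of 738, with a median difference of 0.355 percentage points. Libraries did not overlap in 55 genes upwards (7.2%) and 27 downwards (3.53%). Among the 42 genes called after PladB, 33 had a higher share after WX-02-23 than in DMSO, with a median of 1.48 points and 9 without overlap. These comparisons share the DMSO libraries. ALCAM had 27, 2 and 22 reads at its 5′-most end after WX-02-23 and 14, 21 and 10 after WX-02-43, against none in DMSO (edgeR adjusted p = 0.448 and 0.301), and DESeq2 called it for both. SPTBN1 had the lowest unadjusted p among the tested genes of the lists, with 112, 31 and 67 reads at its 5′-most end after WX-02-23, against 4, 14 and 25 in DMSO, and shares of 9.61% ± 2.86 and 1.57% ± 1.19 (SD, n = 3 each; unadjusted p = 0.00182, edgeR adjusted p = 0.464).

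On their own, 4 early ends rose and none fell after WX-02-23, and 1 late end rose and 3 fell, of 885 and 1076 tested (of all 14025 intervals 0.677% were called, 0.421% higher and 0.257% lower). They are named after their values were seen. Most of these 8 calls depend on single libraries, since 5, 3 and 4 ends were called without DMSO replicate 1, 2 and 3, and 4, 1 and 2 without WX-02-23 replicate 1, 2 and 3. The early end of WDR33 rose by a log2 change of 2.48 (edgeR adjusted p = 0.0076), and those of DIDO1 by 0.90 (0.0477), ZNF3 by 0.55 (0.0477) and ZSCAN2, which had no read there in DMSO and 8, 56 and 66 reads after WX-02-23 (0.0477). WDR33 had a share at its 5′-most end of 19.3% ± 11.9 after WX-02-23 and 5.72% ± 4.61 in DMSO (SD, n = 3 each), and its ratio was not called (edgeR adjusted p = 1). The late ends of ZC3HAV1 (log2 change -0.80, edgeR adjusted p = 0.000664), TRIM36 (-0.73, 0.0235) and KCNJ3 (-0.85, 0.0485) fell, and that of PRRT3 rose (0.74, 0.0477).

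WX-02-43 changed no ratio past the test (0.0%, edgeR), with 12 genes at an unadjusted p under 0.05, 2 calls by DESeq2 and none by limma. The mean share was higher than in DMSO in 401 genes and lower in 331 of 740, with a median of 0.197 percentage points, and libraries did not overlap in 40 genes upwards (5.24%) and 21 downwards (2.75%). No end was called on its own with edgeR, against 0.15% of all intervals, and DESeq2 called 4. Of the 42 genes called after PladB, 25 had a higher share after WX-02-43 than in DMSO, by a median of 0.767 points, with 9 without overlap. This comparison too shares its DMSO libraries with the one that chose the genes.

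WX-02-23 and WX-02-43, given at the same dose and time, did not differ past the test in any gene (0.0% of 764, edgeR), with 17 genes at an unadjusted p under 0.05, 2 calls by DESeq2 and none by limma. The share was higher after WX-02-23 in 379 genes and lower in 354 of 742, with a median difference of 0.0692 percentage points, and libraries did not overlap in 37 genes upwards (4.84%) and 35 downwards (4.58%). No end was called on its own with edgeR, against 0.143% of all intervals. DESeq2 called 1 of the 249 ends to which it gave an adjusted p, where edgeR tested 1961. For CSTF3, 1 of the better measured genes, the shares were 47.1% ± 1.08 after WX-02-23 and 39.7% ± 2.93 after WX-02-43 (SD, n = 3 each), and the 95% interval of the log2 ratio change between them was -0.51 to 1.38. For SSFA2 the shares were 31.7% ± 0.817 and 31.9% ± 5.68, with an interval of -0.81 to 0.82. Over all 764 tested genes the median interval reached 3.71 log2 units to either side of the estimate. The width differed between genes, and in a gene with so wide an interval smaller differences could go undetected.

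In T>C reads neither stereoprobe nor their comparison gave a called ratio with edgeR (0.0% of 342 each), with 1 gene at an unadjusted p under 0.05 for WX-02-23, 11 for WX-02-43 and 12 between them, and DESeq2 and limma called none. The median difference in share was 3.10 percentage points after WX-02-23 and 2.25 after WX-02-43, against 7.82 after PladB. T>C libraries did not overlap with DMSO in 15 genes upwards (4.39%) and 3 downwards (0.877%) after WX-02-23, and in 17 (4.97%) and 8 (2.34%) after WX-02-43. Between WX-02-23 and WX-02-43 they did not overlap in 15 (4.39%) and 16 (4.68%). No early or late end was called on its own in T>C reads after WX-02-23, after WX-02-43 or between them with edgeR, against 0.217%, 0.0994% and 0.0452% of all intervals.

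The 2 ends of a gene can also be compared within the DMSO libraries by the percent of their reads with a T>C change. In DMSO the median over genes was 13.5% T>C reads at the 5′-most end and 10.5% at the 3′-most end. The 5′-most end had the higher percent in 173 genes and the lower in 114 of 287, with a median difference of 3.69 percentage points. These genes needed a mean of at least 5 T>C reads at the less used end. The filter thus acts on the T>C reads that are compared and can tilt these counts, which was not tested. Pooling the reads of all 1544 genes, the 5′-most ends had the slightly lower percent in each DMSO library. It was 9.98%, 8.78% and 9.18% there, against 10.12%, 9.13% and 9.20% at the 3′-most ends. The odds of a T>C read differed between ends in 5 of 342 genes (1.46%, edgeR), 4 with more T>C reads at the 5′-most end and 1 with fewer, and these 5 are named after their values were seen. PPP1R7 and RPL36A kept their call whichever DMSO library was left out. DTNBP1 (edgeR adjusted p 0.121 to 0.156) and RPS3A (0.133 to 0.226) lost it in each case, and IREB2 kept it without replicate 1 (0.0412) and lost it without replicate 2 (0.111) or replicate 3 (0.226). The ends differ in length and T content, so this compares labelled reads, not rates of synthesis. With conversions over covered T positions in place of T>C reads, 2 genes were called, and DTNBP1, IREB2 and RPS3A lost their call.

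DTNBP1, the dysbindin gene, had a T>C change in 21 of 21, 34 of 34 and 57 of 57 reads at its 5′-most end, against 51 of 448, 24 of 403 and 79 of 444 at its 3′-most end in the same DMSO libraries (edgeR adjusted p = 0.0327). Every read of the early end carried the change, against 11.7% ± 5.93 of reads at the late end (SD, n = 3). Such a change can also stem from a genomic variant, which was not subtracted and was not tested here. IREB2, an iron regulatory protein gene, had 26 of 45 and 5 of 5 reads with T>C at its 5′-most end in 2 DMSO libraries and no read in the other (edgeR adjusted p = 0.0329). The ribosomal protein genes RPL36A (edgeR adjusted p = 0.000601) and RPS3A (edgeR adjusted p = 0.0379) had 85.6% ± 19.8 and 10.1% ± 1.92 at the 5′-most end, against 1.27% ± 1.25 and 2.71% ± 0.512 at the 3′-most end (SD, n = 3 each). Up to 87.1% of RPL36A reads and 93.5% of RPS3A reads mapped to several places. PPP1R7, a regulatory subunit of protein phosphatase 1, had no T>C read among 512, 349 and 457 reads at its 5′-most end (chr2:242106484-242106589, plus strand), against 777 of 1623, 651 of 1710 and 512 of 1626 at its 3′-most end (edgeR adjusted p = 6.33e-05). Its early end is 106 bases long with 24 T positions, and its late end 827 bases with 229. The filter needed a mean of at least 5 T>C reads at the less used end over all 12 libraries. The early end of PPP1R7 therefore had T>C reads in libraries of the compounds, whose counts are not given here.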

How the data were processed

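SLAM-seq reads of 12 libraries were counted by the authors with slamdunk 0.4.3, per the file headers, on hg19 as the genome build named in the submitters' processing notes. For each 3′ UTR interval, the authors deposited the count of all reads, the count of T>C reads, a count of multimapping reads and a CPM value. The deposited conversion rate, a fraction of covered T positions, was replaced by the deposited counts behind it. Of 29255 rows per file, 23086 belonged to coding transcripts. The genes and gene lists were chosen with earlier results of these data known. Of 1546 genes found by the rule, 2 pseudoautosomal copies on chromosome Y were left out, and 2 names turned into dates were restored from accessions. No accession occurred in both ends of a gene.

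The ratio test used edgeR 4.0.16 (R 4.3.3) with 2 columns per library, library as a block, end by group as the tested term and all 12 libraries in the fit. Genes needed at least 10 reads over both ends in at least 3 libraries and a mean of at least 5 at the less used end. Each interval was tested on its own with TMM scaling and filterByExpr. Adjusted p under 0.05 (Benjamini-Hochberg) was a call. Log2 changes come with a standard error (SE) from the edgeR fit. Alternatives used DESeq2 1.42.0, limma 3.58.1 (pseudocount 0.5), other filters, other rows, a replicate block and each library left out. The scripts were tested on simulated data. Floors of 3 counts and all counts cover counting error only, since reads have no molecular identifiers. Transcript models came from GENCODE 29, matched by accession on the same chromosome and strand, and sequences also needed an exact match of interval length. The place of an early end among exons was read from the exon coordinates of these models, while the printed intervals are in hg19. Named genes were, for each comparison, the called genes with the largest changes and no overlap of libraries (up to 8 each way), the 12 genes with most reads, the tested genes of the lists, and FOXA1, SF3B1, LMNA, CDC42, TPM1, CSTF3 and PCF11 where they had separate ends. Other genes are said to be chosen after their values were seen. A few items under these rules are not reported here. T>C reads that stem from sequencing errors or genomic variants were not subtracted, as libraries without the label were not analysed here. The labels give the molecule as genomic DNA, while the protocols describe RNA libraries.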

Additional observations from a re-analysis of the deposited data

How the results depend on the processing

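After PladB, the count of 44 called ratios in all reads became 170 with DESeq2, 109 with limma, 21 with at least 1 read at the less used end and 78 with at least 20. It ranged from 20 to 36 with 1 library left out. Of the 44 genes, 15 kept their call whichever library was left out, 9 in none of these fits and 19 in every other setting without a replicate block. MRPL43 was the single gene whose direction reversed, to -0.112 (adjusted p = 0.975) against all other intervals of the gene. The widest row, leaving out genes with over 10% multimapping reads, and the 5′-most against all other intervals gave 44, 43 and 43 calls. The cause of the differences between tools was not tested. In T>C reads the 2 calls after PladB became 33 with DESeq2 (of 229 genes given an adjusted p) and 30 with limma. They became 0 with at least 1 read at the less used end, 6 with at least 20, and 0 with any library left out.

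DESeq2 called 5 ratios after WX-02-23, 2 after WX-02-43 and 2 between them. With 1 library left out, edgeR called 0 for WX-02-23 and for WX-02-43 in all reads and 0 to 1 between them. In T>C reads it called 0 for WX-02-23, and 0 to 1 for WX-02-43 and between them. For ends on their own in all reads, the 8 calls after WX-02-23 became 18 with DESeq2 and 1 to 5 with a library left out. The 0 calls after WX-02-43 and between the stereoprobes became 4 and 1 with DESeq2, of 1737 and 249 ends given an adjusted p. They became 1 and 1 without a filter and 0 to 1 each with a library left out. After PladB they stayed at 347 to 389. In T>C ends DESeq2 called 4 of 142, 4 of 256 and 213 of 1203 ends given an adjusted p after WX-02-23, WX-02-43 and PladB. The count was 1 after WX-02-43 without a filter. With a library left out the counts were 0 to 1, 0 to 1 and 75 to 120 in the same order. The 5 genes whose T>C reads differed between ends in DMSO became 12 with at least 1 T>C read at the less used end, 2 with conversions over covered T positions, 3 without multimapping genes and 3 with any DMSO library left out. Relative log expression scaling (RLE) within edgeR, in place of TMM, moved the median of all intervals after PladB to -0.05, against -0.08 with TMM.

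Replicate numbers did not pair the libraries, since 1 of 18 same-numbered pairs in all reads and 2 of 18 in T>C reads correlated above 0.1. With a replicate block, 26 ratios were called after PladB in all reads, all among the 44 and all towards the 5′-most end, so that ICOSLG was not among them. In T>C reads the block gave 1 ratio after PladB and 1 after WX-02-43, and 1 end on its own after WX-02-43.

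Depth limited which genes were tested, since 764 of 1544 genes passed the filter in all reads and 342 in T>C reads.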
